A study of Mus musculus with 23 samples.

Results

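Solute carriers are the membrane proteins that move amino acids, sugars, ions, organic anions, lipids and vitamins across the plasma membrane and the membranes of organelles. They are numbered by family, and members of a family are related in sequence but can carry different substrates. The genes described here are the rows of a targeted mouse expression panel whose symbol begins with Slc and a number, with Slc11a1 left out, which gave 62 of the 3826 panel genes. They were grouped by substrate into 15 carriers of amino acids, 9 of glucose and other sugars, 8 of inorganic ions, 5 of metal ions, 8 of organic anions and cations, 4 of the mitochondrial membranes, 4 of nucleosides and nucleotide sugars, and 9 of peptides, lipids, vitamins and other substrates.

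The samples were 12 mammary carcinomas of mice given abemaciclib, which inhibits CDK4 and CDK6, the kinases that drive cells into S phase, and 11 of mice given the vehicle. In both groups tumours had been induced with doxycycline from the age of 6 weeks and were randomized, once established, into groups of equal mean volume. Abemaciclib was given at 90 mg/kg each day by gavage, and tissue was frozen after dose 12. The strain, the transgene that doxycycline controls and the animal each tumour came from are not given in the labels, so each tumour was counted as 1 sample, and p-values measure the spread between tumours. 1 short amplicon was read for each gene, and its position in the transcript is not given in the sources used here. Levels are CPM, counts scaled to a common library total, and are compared between groups for 1 gene at a time, since primers of different amplicons can differ in efficiency. Totals were 2756919 to 4990391 counts in abemaciclib tumours and 3044380 to 4492736 in control tumours, and the carriers took 0.429% to 0.606% of them with abemaciclib and 0.444% to 0.614% in control. All 9 luminal epithelial markers on the panel were above the filter on low counts, with summed levels of 5319 to 11801 CPM in abemaciclib and 5969 to 8596 CPM in control tumours. The medians of these sums were 6790 CPM with abemaciclib and 7270 CPM in control, and 2 of the 12 abemaciclib tumours had a sum above the control median, and 1 of the 12 had a mean of the markers' log2 levels above the control median of that mean. The log2 fold changes of abemaciclib over control were positive for 4 of the 9 and negative for 5, at a median of -0.016. By edgeR 1 was higher and 0 lower at an unadjusted p under 0.05.

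In cells that take up and exchange amino acids, sodium-coupled carriers of the Slc38 family bring in glutamine and other small neutral amino acids, and the Slc7a11 exchanger brings in cystine in return for glutamate. Slc7a11 and Slc38a2 are known targets of the amino acid response, in which the transcription factor ATF4 and its partners bind a short element in the gene. The 250 bases before the annotated start of these genes, from RefSeq on GRCm38.p6, are shown because both belong to this response. This choice was made with the results below known. By edgeR only Slc7a11 of the pair had an unadjusted p under 0.05, and its adjusted p was 0.125. It reached the filter level in 10 of 12 abemaciclib and 3 of 11 control tumours. Whether these letters bear on the levels was not tested. Capitals mark matches to TGATGCAA (a form of the ATF4 element), TGACNNNGC (a form of the antioxidant element), CACGTG (the E-box) and GGGCGG (the GC box), searched on both strands. No match of 1 motif overlaps that of another in these windows.
Slc7a11, chr3:50443614-50443863, minus strand: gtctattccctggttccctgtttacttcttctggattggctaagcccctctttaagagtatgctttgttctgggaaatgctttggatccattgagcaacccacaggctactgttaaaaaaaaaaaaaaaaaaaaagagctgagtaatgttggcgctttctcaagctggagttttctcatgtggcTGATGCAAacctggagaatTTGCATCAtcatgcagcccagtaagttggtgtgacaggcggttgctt
Slc38a2, chr15:96699729-96699978, minus strand: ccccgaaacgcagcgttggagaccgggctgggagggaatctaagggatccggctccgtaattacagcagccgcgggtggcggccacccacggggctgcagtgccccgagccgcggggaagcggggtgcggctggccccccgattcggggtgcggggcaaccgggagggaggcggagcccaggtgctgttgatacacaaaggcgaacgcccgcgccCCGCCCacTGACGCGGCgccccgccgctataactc
The Slc7a11 window holds TGATGCAA once on each strand and the Slc38a2 window holds none, which says only that these letters are not in that window. A promoter was matched for 47 of the 62 carriers. Slc38a1 was not among them, so its promoter was not searched. Slc7a11 was the 1 of these 47 with TGATGCAA, or 2.13%, against 0.918% of 27025 genes. GGGCGG was found in 33 of the 47, or 70.2%, against 35.4% of all genes, TGACNNNGC in 11 (23.4% against 11.5%) and CACGTG in 6 (12.8% against 6.86%).

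Abemaciclib tumours were set against control tumours to see which carrier transcripts differ once the kinases are inhibited. Of the 62 carriers, 44 passed the filter on low counts, a level of about 2.46 CPM in at least 11 of the 23 tumours, and 18 were set aside. By edgeR's quasi-likelihood test, with Benjamini-Hochberg adjustment over the 2925 genes tested, 0 carriers were higher and 0 lower at an adjusted p under 0.05, against 0% of all tested genes. At an unadjusted p under 0.05, 3 of the 44 were higher and 0 lower, or 6.82%, against 13.4% of all tested genes, of which 7.59% were higher and 5.81% lower. These 3 were Slc38a1, Slc7a11 and Slc12a4. By DESeq2's Wald test 1 carrier passed the adjusted threshold, the higher Slc38a1, against 2.05% of tested genes, of which 1.61% were called higher and 0.444% lower. Limma-voom with quality weights also called 1 carrier, again Slc38a1, against 4.34% of tested genes, with 1.95% higher and 2.39% lower. The log2 fold changes were positive for 30 carriers and negative for 14, with a median of 0.075, so 68.2% were positive, against 51.1% (1496 of 2925) and a median of 0.0055 over all tested genes. These over all genes are also the values to set beside the sign counts of the groups that follow. Most fold changes were small enough for single tumours to move them: leaving out 1 tumour turned the sign of 18 of the 44 carriers and moved the log2 value of 35 by more than 1.5 times. With scaling to library totals alone the median of all genes moved to -0.12 and that of the carriers to -0.046.

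Slc38a1 (chromosome 15, 96571418 to 96642913, minus strand, mm10), the sodium-coupled neutral amino acid carrier 1 that takes up glutamine, was at 13.7, 21.1 and 78.2 CPM (lowest, median and highest) in abemaciclib tumours, against 7.25, 10.3 and 19.3 CPM in control tumours. All 12 abemaciclib tumours lay above the control median and 8 lay above every control tumour, with abemaciclib tumour 2 far above the rest. The means were 26.6 ± 17.7 CPM (SD, n = 12) with abemaciclib and 12.3 ± 4.07 CPM (SD, n = 11) in control. The fold change was 2.18, and on the log2 scale it was 1.12 (SE 0.262) with a 95% interval of 0.58 to 1.66, which missed the adjusted threshold by edgeR (adjusted p = 0.0578). Among the 2925 genes Slc38a1 ranked 11 by p. DESeq2's Wald test gave an adjusted p of 0.00512 and limma-voom one of 0.0166. Without abemaciclib tumour 2 the log2 fold change was 0.84 and the adjusted p by edgeR 0.0369, and without abemaciclib tumour 10 it was 1.15 and 0.0374. In those fits 32 and 47 panel genes passed, against 0 in the reported fit. Slc38a1 passed in no other fit with 1 tumour left out, where its adjusted p by edgeR reached 0.118. With no filter on low counts it was 0.0778. Without abemaciclib tumours 3 and 10 the log2 fold change was 1.16, with an adjusted p of 0.0263 by edgeR. In that fit 93 of 2924 panel genes passed. Macrophage markers moved the same way: all 6 tested had positive log2 values, 4 with an unadjusted p under 0.05, and in each of the 12 abemaciclib tumours the mean of their log2 levels exceeded the control median. Among them Msr1, a scavenger receptor, had a log2 value of 0.73 (SE 0.168), with an adjusted p of 0.0578 by edgeR and 0.00512 by DESeq2, and limma-voom gave 0.0187. Their part in the Slc38a1 difference was not tested.

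Slc38a2 (chromosome 15, 96687392 to 96699730, minus strand), the paralogue next to it in name and on the chromosome, carries much the same amino acids. It was at 482, 610 and 853 CPM (lowest, median and highest) in abemaciclib tumours, against 505, 654 and 760 CPM in control tumours. The groups overlapped almost fully. On the log2 scale its change was -0.013 (SE 0.0967), with a 95% interval of -0.21 to 0.19 and an adjusted p of 0.972 by edgeR. It was 0.018 without abemaciclib tumour 9, and its sign also turned without abemaciclib tumour 3 or control tumour 5, 8 or 11. The log2 ratio of Slc38a1 to Slc38a2 within a tumour averaged -4.70 ± 0.749 (SD, n = 12) with abemaciclib and -5.70 ± 0.551 (SD, n = 11) in control, a difference of 0.99 that is given as a description. All 12 abemaciclib tumours had a ratio above the control median and 5 one above every control tumour. Across tumours Pearson's r between the paralogues was -0.21 in abemaciclib tumours (Spearman's rho -0.46; permutation p = 0.487 and 0.132) and -0.26 in control tumours (rho -0.29; permutation p = 0.434 and 0.386). Without the 2 tumours farthest from the Slc38a2 median, r was -0.10 with abemaciclib and -0.49 in control. Over the 12 relations computed between pairs of genes, the adjusted p was 0.666 for each r and at least 0.528 for each rho here.

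Slc7a11 (chromosome 3, 49892526 to 50443614, minus strand), whose promoter is printed above, was low in all tumours. It was at 0.48, 4.08 and 8.98 CPM (lowest, median and highest) in abemaciclib tumours, against 0.293, 2.04 and 3.75 CPM in control tumours. Of the abemaciclib tumours 11 of 12 lay above the control median and 8 above every control tumour, and abemaciclib tumour 11 lay near the lowest control tumour. Its fold change was 2.37, or 1.24 on the log2 scale (SE 0.367, 95% interval 0.49 to 2.00), with an adjusted p of 0.125 by edgeR, 0.217 by limma-voom and 0.0503 by DESeq2. The level needed to pass the filter was reached in 10 of 12 abemaciclib and 3 of 11 control tumours, so it passed mainly through the group where it is high. Abemaciclib tumour 2 was the highest for both Slc38a1 and Slc7a11. Within abemaciclib tumours r between them was 0.62 (rho 0.42; permutation p = 0.0554 and 0.176, adjusted p = 0.264 and 0.528 over the 12 relations), and it was 0.29 without tumours 2 and 11, so the relation rests on those tumours. In control tumours r was -0.33 (rho -0.21; permutation p = 0.326 and 0.540, adjusted p = 0.651 and 0.810), and 0.34 without control tumours 5 and 7. This pair was chosen after its values were seen.

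**Figure D1:**
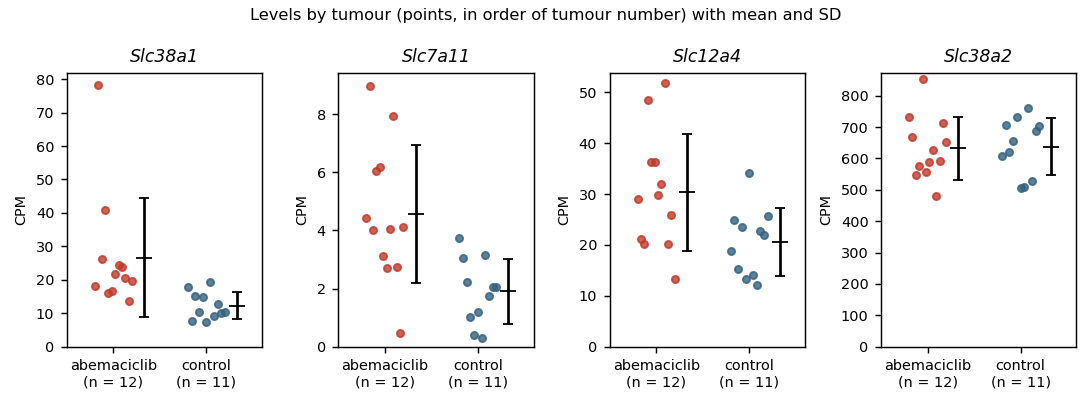
Levels of Slc38a1, Slc7a11, Slc12a4 and Slc38a2 in CPM (vertical axes, from 0), with 1 point per tumour, 12 abemaciclib tumours left of 11 control tumours, and the mean and SD as bars. For Slc38a1 and for Slc7a11, 8 abemaciclib tumours lie above every control tumour, while the groups overlap for Slc38a2.

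The other carriers of amino acids differed less between the groups than Slc38a1 and Slc7a11. Of all 9 tested carriers of amino acids, 6 were positive and 3 negative on the log2 scale, at a median of 0.35, and 0 passed the adjusted threshold. Slc1a1, a carrier of glutamate, aspartate and cysteine, was at 89.0 ± 38.6 CPM with abemaciclib and 65.0 ± 21.4 CPM in control, a log2 fold change of 0.45 (SE 0.246 and edgeR adjusted p 0.435). Slc1a4, which exchanges alanine, serine and cysteine, was at 357 ± 169 CPM with abemaciclib and 265 ± 88.9 CPM in control, a log2 fold change of 0.43 (SE 0.258 and edgeR adjusted p 0.490). For each of these carriers 5 abemaciclib tumours lay above every control tumour and 4 lay below the control median, so the abemaciclib tumours were spread to both sides. Slc6a9, a glycine carrier, Slc6a6, a taurine carrier, and the glutamate carriers Slc1a2 and Slc1a3, all 4 named after their values were seen, had log2 fold changes of -0.067, 0.039, -0.14 and 0.35. Their signs turned with 1 tumour left out: Slc6a9 was at 0.042 and Slc1a2 at 0.032 without control tumour 8, Slc6a6 at -0.088 without abemaciclib tumour 9, and Slc1a3 at -0.066 without abemaciclib tumour 10. For the 11 tested genes of the amino acid response other than the carriers the median was 0.058 on the log2 scale, with 6 positive, 5 negative and 0 past the adjusted threshold. Among them Glul, glutamine synthetase, was at 0.47 (SE 0.239 and edgeR adjusted p 0.406) and Mthfd2, a mitochondrial folate enzyme, at -0.34 (SE 0.238 and edgeR adjusted p 0.565). Genes of mTORC1 and nutrient sensing had a median log2 value of 0.00053 over 10 tested, 5 positive and 5 negative, 0 past the adjusted threshold, with Tsc2 at 0.18 (SE 0.113) and Rheb at 0.20 (SE 0.130).

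No carrier of sugars passed the threshold. Of 8 tested, 6 were positive and 2 negative, with a median log2 fold change of 0.13, and 0 had an unadjusted p under 0.05. Slc2a1, the basal glucose transporter GLUT1, was at 136, 370 and 456 CPM (lowest, median and highest) in abemaciclib tumours, against 174, 311 and 465 CPM in control tumours, so the groups overlapped over nearly their whole range. The change was 0.12 on the log2 scale (SE 0.178), between -0.25 and 0.48 at 95% (adjusted p = 0.821 by edgeR). Slc2a10, another member of the glucose transporter family, had the lowest value of all tested carriers at -0.70 (SE 0.396 and edgeR adjusted p 0.453), on 0.281 to 14.4 CPM with abemaciclib and 1.76 to 22.7 CPM in control. It was at -0.42 without control tumour 8, the highest of its group at 22.7 CPM against a median of 5.14. Slc2a6, a glucose transporter of intracellular membranes, was at 0.45 (SE 0.322 and edgeR adjusted p 0.581), and at 0.30 without abemaciclib tumour 4 and 0.75 without control tumour 6, the highest tumour of each group. Slc45a3, a member of the sugar-proton symporter family, was at 682 ± 395 CPM with abemaciclib and 576 ± 186 CPM in control, a change of 0.24 on the log2 scale (SE 0.279 and edgeR adjusted p 0.745), which was 0.095 without abemaciclib tumour 1 and 0.028 by limma-voom. Among 12 tested glycolysis genes 5 were positive and 7 negative, with a median of -0.025 on the log2 scale and 0 past the threshold. Of these Tpi1, triosephosphate isomerase, was at -0.28 (SE 0.161) and Hk2, hexokinase 2, at 0.36 (SE 0.223).

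Among carriers of inorganic ions, Slc12a4 (chromosome 8, 105943590 to 105966097, minus strand), the potassium-chloride cotransporter KCC1, had the smallest p. Of the 5 tested there, 3 were positive and 2 negative, at a median of 0.098 on the log2 scale. Slc12a4 was at 13.4, 29.4 and 51.8 CPM (lowest, median and highest) in abemaciclib tumours, against 12.2, 22.0 and 34.1 CPM in control tumours. Of the abemaciclib tumours 8 of 12 lay above the control median and 4 above every control tumour. On the log2 scale the change was 0.56 (SE 0.211), between 0.13 and 0.99 at 95%, with an adjusted p of 0.213 by edgeR, 0.117 by limma-voom and 0.134 by DESeq2. Slc4a2, the chloride-bicarbonate exchanger AE2, varied least among abemaciclib tumours, with a coefficient of variation of 8.28% with abemaciclib and 9.55% in control, and had the smallest SE of the carriers. It was at 177 ± 14.6 CPM with abemaciclib and 192 ± 18.3 CPM in control, which is -0.12 on the log2 scale (SE 0.0676), between -0.25 and 0.023 at 95%, with an edgeR adjusted p of 0.472. The phosphate carriers Slc34a2 and Slc20a1 had log2 fold changes of 0.13 (SE 0.336) and 0.10 (SE 0.257), and single tumours set their signs, since Slc34a2 was at -0.025 without abemaciclib tumour 12 and -0.0099 without tumour 1, and Slc20a1 was at -0.14 without abemaciclib tumour 10 and -0.015 without tumour 3.

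The 4 tested carriers of metal ions, 3 positive and 1 negative at a median of 0.073, had 95% intervals inside -0.5 to 0.5 on the log2 scale. Slc30a4, which loads zinc into vesicles and in the mouse is needed for zinc in milk, was at 93.3 ± 17.3 CPM with abemaciclib and 83.0 ± 17.1 CPM in control, a log2 fold change of 0.17 (SE 0.123 and edgeR adjusted p 0.585). Slc31a2, a copper carrier, was at 44.9 ± 7.40 CPM with abemaciclib and 51.3 ± 12.3 CPM in control, a log2 fold change of -0.19 (SE 0.126 and edgeR adjusted p 0.547). The zinc carrier Slc39a6 and the iron carrier Slc11a2, named after their values were seen, were at 0.079 (SE 0.109) and 0.068 (SE 0.120). Of 6 tested metal handling genes outside the carriers 5 were positive, with a median of 0.56 on the log2 scale, and 3 had an unadjusted p under 0.05 while 0 passed the adjusted threshold by edgeR. Hmox1, the heme-degrading enzyme, was at 101 ± 56.1 CPM with abemaciclib and 46.4 ± 24.0 CPM in control, a log2 fold change of 1.13 (SE 0.284 and edgeR adjusted p 0.0742), with all 12 abemaciclib tumours above the control median. Fth1, the ferritin heavy chain, had one of 0.71 (SE 0.190 and edgeR adjusted p 0.0874). DESeq2's adjusted p was 0.00735 for Hmox1 and 0.0152 for Fth1, and limma-voom's was 0.0130 and 0.0137. The part of the macrophage markers given beside Slc38a1 in these differences was not tested.

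The organic anion and cation carriers were positive in 6 of 6 tested, with a median log2 fold change of 0.13 and 0 past an unadjusted p of 0.05. Slc5a8, a sodium-coupled carrier of short-chain monocarboxylates, was at 36.3, 65.7 and 137 CPM (lowest, median and highest) in abemaciclib tumours, against 9.73, 54.4 and 98.7 CPM in control tumours, with 4 abemaciclib tumours above every control tumour. Its change was 0.54 on the log2 scale (SE 0.282), between -0.044 and 1.12 at 95%, with an edgeR adjusted p of 0.418. Slc17a7, a vesicular glutamate carrier known from neurons, was at 3.98 ± 1.41 CPM with abemaciclib and 3.04 ± 1.12 CPM in control (log2 fold change 0.38, SE 0.241, adjusted p = 0.514). Slc16a3, the lactate exporter MCT4, was at 4.22, 19.9 and 124 CPM in abemaciclib tumours, against 8.48, 25.7 and 89.2 CPM in control tumours. Its log2 fold change of 0.18 (SE 0.466 and edgeR adjusted p 0.907) had a sign set by single tumours, since it was -0.21 without abemaciclib tumour 2 and -0.034 without abemaciclib tumour 3, while it was 0.49 without control tumour 3, the highest control. Slc17a5, the lysosomal sialic acid exporter, was at 0.087 (SE 0.115).

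The carriers of mitochondria, the Golgi, lipids and vitamins also held 0 past the threshold. In the mitochondrial group 1 of 4 was positive, among nucleotide sugar carriers 2 of 3, and among carriers of lipids, vitamins and other substrates 3 of 5, with medians of -0.016, 0.11 and 0.065 on the log2 scale. Slc25a4, the ADP/ATP carrier of heart and muscle type, was at 604 ± 114 CPM with abemaciclib and 583 ± 88.9 CPM in control (log2 fold change 0.051, 95% interval -0.18 to 0.28, adjusted p = 0.885 by edgeR). Slc25a14, a mitochondrial carrier of the uncoupling protein family, had a log2 fold change of -0.26 (SE 0.141 and edgeR adjusted p 0.435), with 11 of 12 abemaciclib tumours below the control median and abemaciclib tumour 9 above every control tumour. The Golgi carriers Slc35a1, for CMP-sialic acid, and Slc35a3, for UDP-N-acetylglucosamine, were each at 0.11 (SE 0.130 and 0.125), and Slc35b1, a nucleotide carrier of the endoplasmic reticulum, was at -0.12 (SE 0.222) and turned to 0.15 without control tumour 6. Of the fatty acid transport proteins, Slc27a1 was at 0.38 (SE 0.279 and edgeR adjusted p 0.592), or 0.22 without abemaciclib tumour 7, Slc27a3 at -0.32 (SE 0.404 and edgeR adjusted p 0.771) and Slc27a4 at 0.071 (SE 0.197), or -0.065 without abemaciclib tumour 9. Slc27a3 was at -0.57 without abemaciclib tumour 10 and -0.20 without control tumour 7. Slc19a1, the reduced folate carrier, was at -0.16 (SE 0.175 and edgeR adjusted p 0.732), or -0.027 without control tumour 8 and -0.26 without abemaciclib tumour 2. Over all 44 tested carriers, 36 had a 95% interval inside -1 to 1 and 20 inside -0.5 to 0.5. The 7 tested ATP-driven transporters, a separate family of pumps, were all positive with a median of 0.26 on the log2 scale and 0 past the adjusted threshold, with Abcc4 at 0.64 (SE 0.246 and edgeR adjusted p 0.215) and Abcc1 at 0.26 (SE 0.182). Of the list of carrier partners and Slco organic anion carriers, 2 genes were on the panel and 1 was tested, Ezr, a membrane linker, at -0.10 (SE 0.130).

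**Figure D2:**
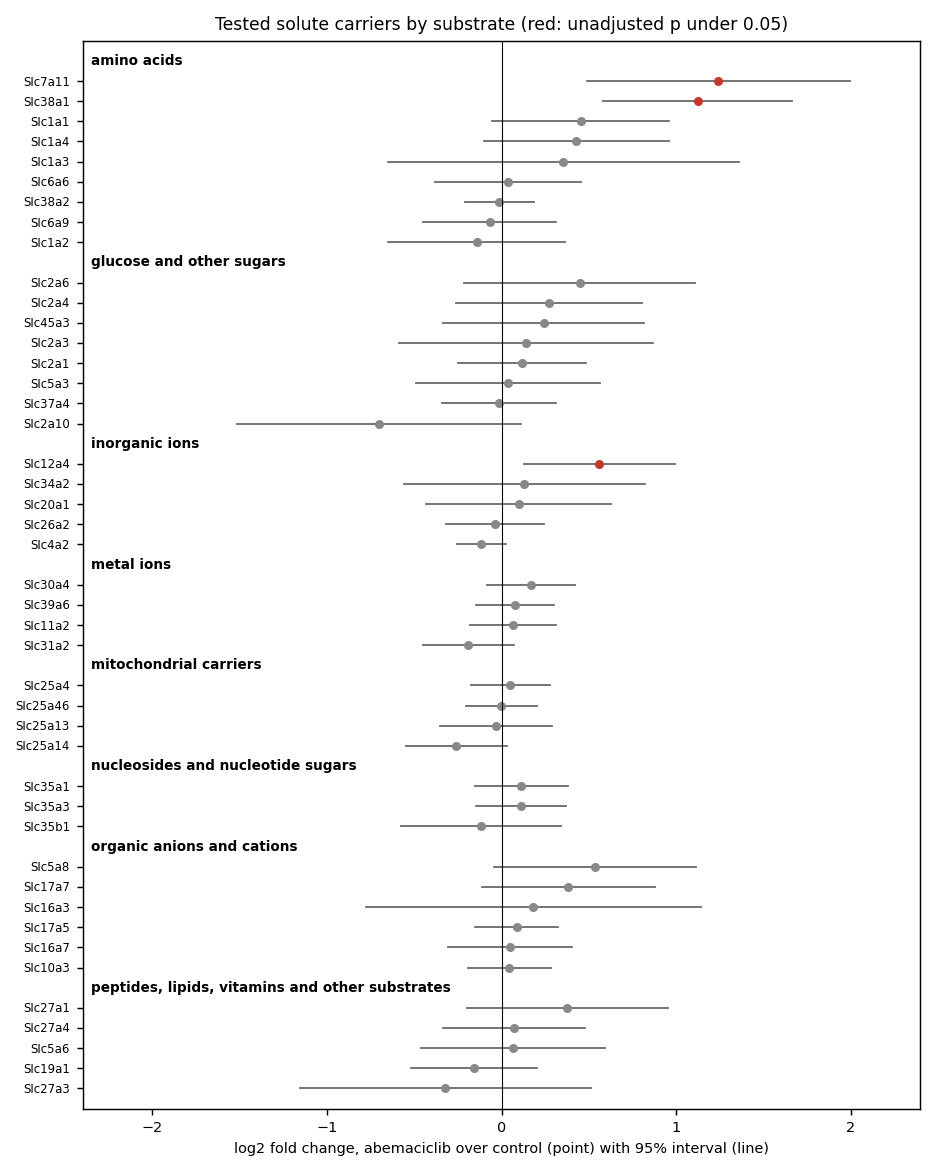
Log2 fold change of abemaciclib over control (horizontal axis, points) with 95% intervals (lines) for the 44 tested carriers, by substrate group down the page. The 3 red points, Slc7a11, Slc38a1 and Slc12a4, have an unadjusted p under 0.05, and the other 41 intervals include 0.

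Of the 18 carriers set aside, 4 had no read in any of the 23 tumours. These were the GABA carriers Slc6a11 and Slc6a13, the sodium-proton exchanger Slc9a3 and the metal carrier Slc30a10, and a count of 0 allows up to 0.0628 CPM over the abemaciclib group and 0.0659 CPM over the control group, for counting error only. Another 10 had fewer than 20 reads in each group. Slc6a12, a betaine and GABA carrier and 1 of these 10, had 13 reads in 6 of 12 abemaciclib tumours and 0 reads in the 11 control tumours. The ratio was 4.13 when control is set to 3 reads over the group. It leaves out the counting error of the 13 reads and the spread between tumours, so it is no lower limit. With no filter its p was 0.00354 and its adjusted p 0.144 by edgeR. Slc9a2, another sodium-proton exchanger, had 46 reads in abemaciclib tumours, at most 12 in 1 tumour, and 9 reads in control tumours, at most 3 in 1 tumour, with a log2 fold change of 2.22 with no filter (adjusted p = 0.169). Slc4a4, a sodium-bicarbonate cotransporter, had 129 reads with abemaciclib and 181 in control, of which 1 control tumour held 95. Slc27a6, a fatty acid transport protein, had 68 reads with abemaciclib and 73 in control, and Slc35f2 had 12 and 24. All of these named carriers were chosen after their values were seen.

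Many carriers differed more among tumours of 1 group than between the groups. Among carriers with a mean of at least 20 CPM, the coefficient of variation within abemaciclib tumours was highest for Slc16a3 at 108%, Slc27a3 at 86.6%, Slc34a2 at 66.7%, Slc38a1 at 66.4% and Slc20a1 at 64.8%. Within control tumours it was highest for Slc16a3 at 72.2%, Slc2a6 at 69.8%, Slc35b1 at 60.8%, Slc27a3 at 52.6% and Slc5a8 at 44.2%. The Slc35b1 value came with control tumour 6, at 160 CPM against a control median of 58.5 CPM, and the same tumour was the highest control for 10 of the 44 tested carriers. Control tumour 8 was the lowest control for 15 of them and the highest for 9.

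This spread followed Mki67, the marker of dividing cells, for a part of the carriers. Mki67 was at 9.04, 31.3 and 109 CPM (lowest, median and highest) in abemaciclib tumours, against 35.8, 96.2 and 151 CPM in control tumours, without a wide gap inside either group (largest step 0.72 on the log2 scale with abemaciclib and 0.50 in control). Correlations with Mki67 on the log2 CPM scale were computed for each of the 44 tested carriers within each group, 88 relations in all, after values had been seen. In abemaciclib tumours 14 carriers passed the adjusted threshold for both Pearson's r and Spearman's rho (permutation tests, two-sided), 5 of them with a positive and 9 with a negative r. In control tumours 1 passed for r and 0 for rho, while all 14 had the same sign there as in abemaciclib tumours, and 33 of all 44 did. These calls and sign agreements were not computed over all panel genes, so they are not shown to be particular to the carriers. The difference in r between the groups was not tested. An r of at least 0.7 in size was met by 36.4% of the tested carriers and 22.7% of the 2924 tested panel genes apart from Mki67 in abemaciclib tumours, and by 6.82% and 9.34% of them in control tumours.

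The carriers that were higher where Mki67 was higher included Slc27a3 for fatty acids, Slc16a3 for lactate and Slc20a1 for phosphate. Over all abemaciclib tumours the r of their relatives was -0.76 for Slc27a1, 0.07 for Slc27a4 and -0.87 for the phosphate carrier Slc34a2. Slc16a7, of the family of Slc16a3 and named after its values were seen, was at -0.65 (adjusted permutation p = 0.0927). Without abemaciclib tumours 2, 3 and 10, r was -0.79 for Slc27a1, 0.53 for Slc27a4, -0.75 for Slc34a2 and -0.098 for Slc16a7. Without tumours 7 and 10 it was 0.30 for Slc27a4 and -0.56 for Slc16a7. The values of Slc27a4 and Slc16a7 thus rest on a few tumours. Slc27a3 (chromosome 3, 90385239 to 90389938, minus strand) was at 4.10, 15.8 and 63.1 CPM (lowest, median and highest) in abemaciclib tumours, against 11.5, 28.9 and 52.9 CPM in control tumours. It was lowest in abemaciclib tumours 1 and 7, which had the lowest Mki67, and highest in tumour 10, which had the highest. Its r with Mki67 was 0.92 in abemaciclib tumours (rho 0.94; permutation p = 2e-05 for each, adjusted p = 0.00132 and 0.00088) and 0.68 in control tumours (rho 0.60; permutation p = 0.0189 and 0.0566, adjusted p = 0.0831 and 0.178), and without the 2 tumours farthest from the Mki67 median 0.86 with abemaciclib and 0.44 in control. Slc16a3 had an r of 0.86 in abemaciclib tumours (rho 0.86; permutation p = 0.00035 and 0.00056, adjusted p = 0.00616 and 0.00986) and 0.27 in control tumours (rho 0.55; adjusted permutation p = 0.561 and 0.203). Slc20a1, the sodium-phosphate carrier PiT-1, had an r of 0.82 in abemaciclib tumours (rho 0.85; adjusted permutation p = 0.00855 and 0.0117) and 0.76 in control tumours (rho 0.75; adjusted permutation p = 0.0385 and 0.0564). Slc6a6, the taurine carrier, and Slc2a3, the glucose transporter GLUT3, named after their values were seen, had r of 0.77 and 0.79 with abemaciclib and 0.23 and 0.22 in control. Slc2a3 was low, at 0.562 to 9.96 CPM with abemaciclib, and 7 of the 12 abemaciclib tumours reached the level of the filter.

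The carriers that were lower where Mki67 was higher included Slc5a3 for myo-inositol, Slc34a2 for phosphate, and Slc35a1 and Slc35a3 for nucleotide sugars. Slc35b1, of the same substrate group as the last of these, had an r of 0.24 in abemaciclib tumours. Slc5a3 (chromosome 16, 92058322 to 92087473, plus strand), the sodium-coupled myo-inositol carrier, named after its values were seen, was at 165, 432 and 822 CPM (lowest, median and highest) in abemaciclib tumours, against 208, 363 and 773 CPM in control tumours. It was highest in abemaciclib tumour 7 and lowest in tumour 10, the reverse of Mki67. Its r was -0.94 in abemaciclib tumours (rho -0.94; permutation p = 3e-05 and 1e-05, the second the smallest the resamples can give, adjusted p = 0.00132 and 0.00088) and -0.34 in control tumours (rho -0.44; adjusted permutation p = 0.479 and 0.357). Slc34a2 (chromosome 5, 53038081 to 53071664, plus strand), the sodium-phosphate cotransporter NaPi-IIb of secretory epithelia, was at 57.6, 127 and 371 CPM in abemaciclib tumours, against 30.9, 167 and 257 CPM in control tumours, with an r of -0.87 (rho -0.88; adjusted permutation p = 0.00616 and 0.00594) and -0.65 (rho -0.70; adjusted permutation p = 0.133 and 0.0878). Slc45a3 (chromosome 1, 131962967 to 131982969, plus strand) had an r of -0.86 with abemaciclib (rho -0.90; adjusted permutation p = 0.00855 and 0.00469) and -0.62 in control (rho -0.72; adjusted permutation p = 0.165 and 0.0767). Slc35a1 had an r of -0.92 and Slc35a3 of -0.81 with abemaciclib, and -0.64 and -0.68 in control. The other 4, Slc1a1, Slc1a4, Slc31a2 and Slc27a1, had r of -0.80, -0.74, -0.74 and -0.76 with abemaciclib and -0.62, -0.39, -0.64 and -0.37 in control. Exons of Slc5a3, Slc45a3 and Slc35a3 overlap those of another gene on the same strand, so their reads may be shared.

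In abemaciclib tumours these relations were computed again with 2 sets of tumours left out. The 14 had been picked by their r in the same tumours, so the values that follow are a description. Tumour 1, also low in Mki67, was kept in both. Without abemaciclib tumours 7 and 10, the 2 farthest from the Mki67 median, r kept its sign for the 14 carriers and was at least 0.66 in size. Without abemaciclib tumours 2, 3 and 10 all 14 kept their sign, with r of 0.62 to 0.90 in size. Slc38a1 was not among the 14. Its r with Mki67 was 0.51 in abemaciclib tumours (rho 0.58; permutation p = 0.0878 and 0.0522, adjusted p = 0.264 and 0.313 over the 12 relations between pairs) and 0.70 without tumours 7 and 10, and 0.03 in control tumours (rho 0.09; permutation p = 0.931 and 0.796), or 0.28 without control tumours 1 and 6.

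**Figure D3:**
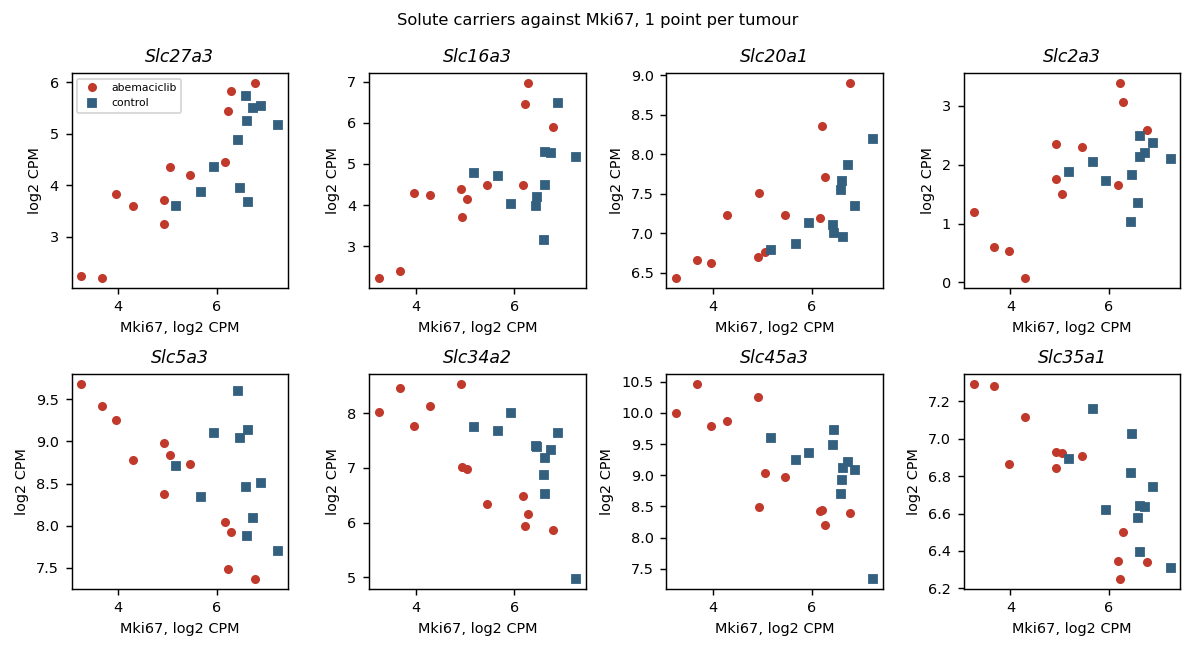
Level of 8 carriers against Mki67, both in log2 CPM, with 1 point per tumour (red circles, 12 abemaciclib tumours; blue squares, 11 control tumours). In abemaciclib tumours the top row rises with Mki67 (r of 0.79 to 0.92) and the bottom row falls with it (r of -0.94 to -0.86).

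Markers of other cell types moved with Mki67 as well. In abemaciclib tumours the summed level of basal epithelial markers had an r of 0.84 with Mki67 (rho 0.88; adjusted permutation p = 0.00266 and 0.00476 over 14 relations), macrophage markers -0.76 (rho -0.68; adjusted permutation p = 0.0440 and 0.0853) and adipocyte markers -0.72 (rho -0.74; adjusted permutation p = 0.0453 and 0.0572). Only the basal list passed for both r and rho, while the macrophage and adipocyte lists passed for r alone. Luminal markers were at 0.57, fibroblast markers at 0.27, T cell markers at 0.22 and endothelial markers at -0.11, none past the threshold for either. In control tumours r was 0.52 for basal, -0.50 for macrophage, -0.59 for adipocyte and 0.41 for T cell markers. It was -0.34 there for endothelial markers, and of the opposite sign for luminal (-0.58) and fibroblast markers (-0.34), and 0 of the 7 lists passed. These sums weigh each marker by its level. With abemaciclib the mean was 207 CPM for Lpl and 76.6 CPM for Cd36, against 5.36 CPM for Adipoq, among adipocyte markers. Cd14 was at 1867 CPM among macrophage markers and Krt14 at 1751 CPM among basal markers. The single markers of the lists were not set against Mki67. The part of these cell types in the carriers' spread was not tested, and in whole tumours fewer cells of a type and less RNA per cell cannot be told apart. The summed level ranged over 1906 to 4542 CPM with abemaciclib and 1430 to 3011 CPM in control for the 7 macrophage markers on the panel, of which 6 of 6 tested were positive and whose sum exceeded the control median in 10 of the 12 tumours given abemaciclib. It ranged over 555 to 12777 and 818 to 5154 CPM for the 5 basal markers, 90.8 to 834 and 65.4 to 450 CPM for the 6 adipocyte markers, 1435 to 19509 and 2955 to 7569 CPM for the 7 fibroblast markers, 296 to 674 and 359 to 800 CPM for the 7 endothelial markers, and 20.1 to 102 and 17.2 to 73.1 CPM for the 10 T cell markers, abemaciclib before control each time. Each list had 0 markers without a read. The 2 erythroid markers on the panel summed to at most 2.11 CPM with abemaciclib and 1.09 CPM in control. The 10 proliferation markers were all negative, at a median of -1.04 on the log2 scale.

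Because Slc38a1 was the carrier with the smallest p, it was also set against Csf1r, a macrophage receptor, a pair chosen after values were seen. Its r with Csf1r was -0.60 in abemaciclib tumours (rho -0.59; permutation p = 0.0315 and 0.0489, adjusted p = 0.264 and 0.313 over the 12 relations), and -0.39 without tumours 2 and 12. In control tumours it was 0.11 (rho -0.03; permutation p = 0.754 and 0.949), and -0.24 without control tumours 6 and 9. Slc7a11 and Mki67 had an r of 0.41 with abemaciclib (rho 0.29; permutation p = 0.186 and 0.358), 0.56 without tumours 7 and 10, and -0.23 in control (rho -0.01; permutation p = 0.499 and 0.990), 0.02 without tumours 1 and 6. Slc2a1 and Slc16a3, which bring in glucose and export lactate, had an r of 0.10 with abemaciclib (rho 0.08; permutation p = 0.757 and 0.818), 0.12 without tumours 2 and 7, and 0.55 in control (rho 0.24; permutation p = 0.0759 and 0.485), which was -0.33 without control tumours 3 and 7 and so rested on them. Of the 12 relations 0 passed after adjustment.

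**Figure D4:**
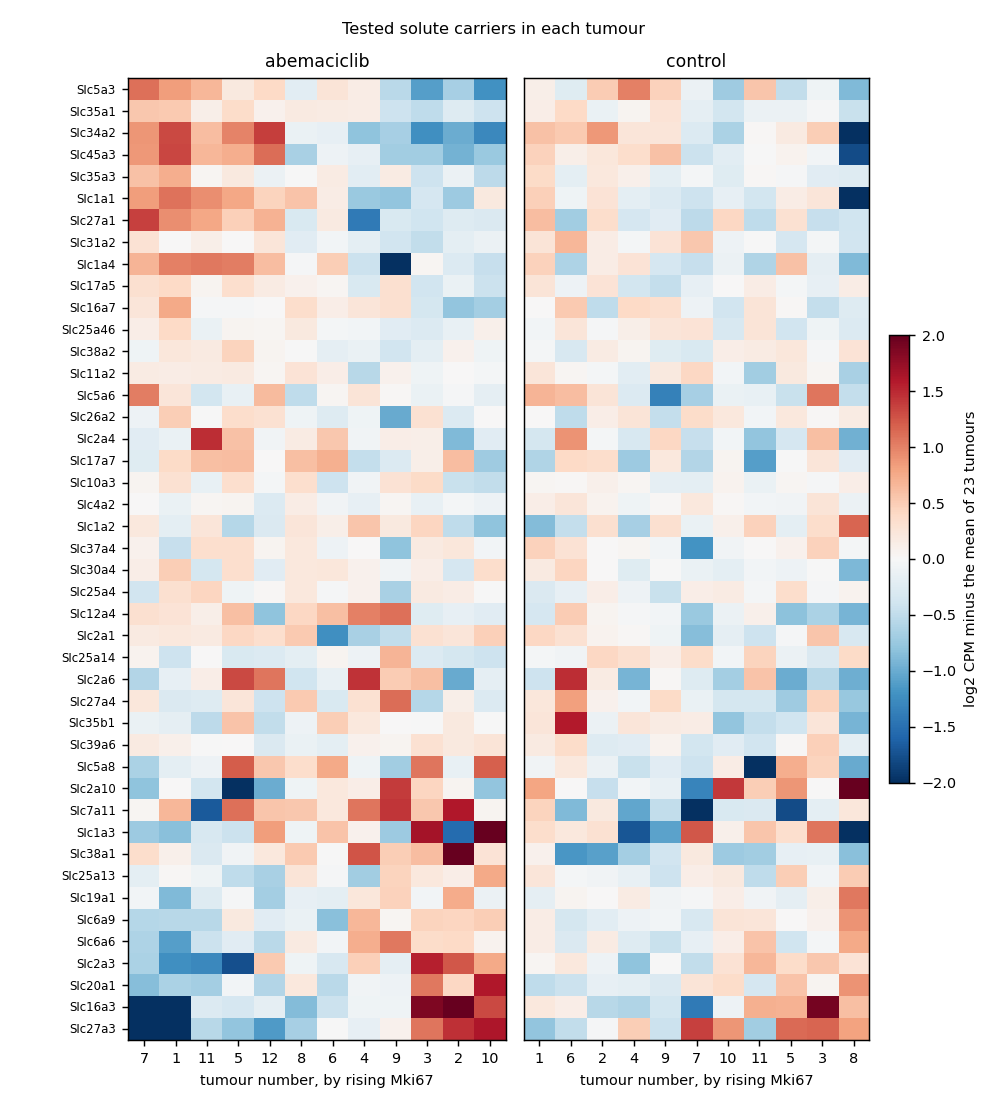
Level of the 44 tested carriers (rows, ordered by r with Mki67 in abemaciclib tumours) in each tumour (columns, ordered by Mki67 within each group; abemaciclib left, control right), as log2 CPM minus the mean of the 23 tumours, with colours ending at -2 and 2. In the abemaciclib block the top rows pass from red (above the mean) at left to blue (below it) at right and the bottom rows from blue to red, as for Slc5a3 (r of -0.94) and Slc27a3 (r of 0.92).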

How the data were processed

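Total RNA of 23 mammary tumours was read with a targeted amplicon panel, per the labels' protocols. The authors deposited whole-number counts per gene, without normalization, on mm10 according to the submitters' processing notes. Aligner and counter: not given in the sources used here. The labels name no molecular identifiers, so floors and intervals of counts cover counting error only.

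The test was edgeR 4.0.16 (R 4.3.3) with filterByExpr by group, TMM scaling and the quasi-likelihood fit (glmQLFTest, two-sided), and p-values were adjusted by Benjamini-Hochberg over 2925 genes. SE is the log2 fold change divided by the root of F. CPM use TMM-scaled totals, and log2 CPM a prior count of 2. DESeq2 1.42.0 and limma 3.58.1 were alternatives, and permutation tests used 100000 resamples. The fit was tested on simulated data. Of 253 pairs of tumours none agreed within sampling noise (chi-square per degree of freedom at least 16.7).

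The carriers, lists and tests were chosen with earlier results of these data known. Alternatives were other scalings, filters and tools, a replicate block, and leaving out tumours. Named carriers are the 14 with the smallest p, 2 with the smallest p and 1 with the highest level in each substrate group, the 5 most variable in each group, and a list of well-known carriers, 28 in all. Others are said to be named after their values were seen. Of each list up to 2 genes with the smallest p were to be named, and for marker lists the summed levels are given instead.

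Positions are from GENCODE M21 on GRCm38, the assembly that mm10 names, 1-based. All 62 symbols matched. Exons of 21 carriers, among them Slc12a4, Slc1a1, Slc20a1, Slc2a1, Slc35a1, Slc35a3, Slc45a3, Slc4a2, Slc5a3 and Slc6a6, overlap those of another gene, and whether counting used strand is not given in the sources used here, so reads of these may be shared. For Slc5a3, Slc45a3, Slc35a3 and Slc10a3 an overlapping gene lies on the same strand, where counting by strand would not separate the reads.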

Additional observations from a re-analysis of the deposited data

How the results depend on the processing

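With DESeq2's Wald test, limma-voom, or without abemaciclib tumours 3 and 10, 1 carrier was higher, Slc38a1 each time. Of all panel genes 60, 127 and 93 passed in these fits, against 0 in the reported fit. Leaving out each tumour in turn gave 0 to 1 higher and 0 lower carriers, against 0 and 0 as reported. With DESeq2 size factors, upper-quartile factors, library totals, no filter, a mean count of at least 50, or the replicate block, 0 were higher, and 0 were lower under every alternative run. The median over the carriers turned to -0.046 with library totals alone, by construction of a scaling that moved the median of all genes to -0.12. It was 0.075 as reported.

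The carriers whose fold changes are printed changed sign as follows, all of them past no threshold as reported, and the cause was not tested. With library totals Slc17a5 was at -0.064, Slc20a1 at -0.0045, Slc25a4 at -0.085, Slc27a4 at -0.026, Slc34a2 at -0.023, Slc35a1 at -0.025, Slc35a3 at -0.040, Slc6a6 at -0.079, Slc39a6 at -0.031 and Slc11a2 at -0.060. With limma-voom Slc16a3 was at -0.35, Slc20a1 at -0.081, Slc27a4 at -8.5e-05, Slc2a1 at -0.075, Slc34a2 at -0.12, Slc35b1 at 0.11, Slc1a2 at 0.034 and Slc6a6 at -0.11. Without abemaciclib tumours 3 and 10 Slc16a3 was at -0.19, Slc20a1 at -0.33, Slc1a3 at -0.44 and Slc38a2 at 0.0091. Leaving out each tumour in turn gave ranges of -0.21 to 0.49 for Slc16a3, -0.14 to 0.21 for Slc20a1, -0.065 to 0.18 for Slc27a4, -0.025 to 0.22 for Slc34a2, -0.20 to 0.15 for Slc35b1, -0.22 to 0.032 for Slc1a2, -0.066 to 0.52 for Slc1a3, -0.088 to 0.12 for Slc6a6, -0.14 to 0.042 for Slc6a9 and -0.063 to 0.018 for Slc38a2.

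Tumours of the 2 groups share replicate numbers, and a fit with the number as a block on the 11 shared numbers, without abemaciclib tumour 12, called 0 carriers. In it Slc16a3 was at -0.22, Slc34a2 at -0.15 and Slc35b1 at 0.055. Deviations of same-numbered tumours correlated at -0.43 to 0.45, with a median of 0.086. The correlation was above 0.1 in 5 of 11 pairs, and 2 of 11 correlated best with their own number. So few pairs cannot settle whether the numbers pair the tumours. Carriers under about 2.46 CPM in most tumours rest on few reads and were left out of the reported fit.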
